A study of Rattus norvegicus with 20 samples.

Results

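Transcripts of the organic ion transporters and the ABC transporters were followed in kidneys of rats given cyclosporine A or tacrolimus. The set holds the solute carriers Slc22 and Slco and the ATP-binding cassette families Abca to Abcg. It was taken from the gene symbols alone: a protein-coding row of the tacrolimus table entered if its symbol began with Slc22a, Slco or one of Abca to Abcg followed by a digit. This gave 81 of the 32883 rows of that table. All 81 were found in the cyclosporine A table by gene identifier, 79 of them under the same symbol. The families were Slc22 organic cation transporters (3 genes), Slc22 carnitine transporters (2), Slc22 organic anion transporters (8), other Slc22 genes (3), Slco (16), Abca (16), Abcb (8), Abcc (10), Abcd (4), Abce with Abcf (4) and Abcg (7).

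The animals were wild-type male Wistar rats of 10 to 12 weeks, and RNA came from the entire kidney. Drug or vehicle was given for 28 days from a minipump under the skin. Cyclosporine A (n = 4) was set against saline (n = 4). The labels give a target trough for cyclosporine A too, which is not printed here because its unit looks like a slip. Tacrolimus, dosed to a target trough of 3.5 ng/ml in plasma (n = 6), was set against its solvent (n = 6), of which 25% was DMSO and 75% was the polyethylene glycol PEG500 (called DMSO/PEG here). Both drugs are calcineurin inhibitors, which suppress T cells after transplantation and can harm the kidney, and the series asked how their effects on the kidney differ. The vehicles differ, and so do the tables the values come from, so a contrast of the 2 drugs cannot be told apart from one of vehicles or of tables.

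Proximal tubule cells clear drugs, toxins, bile salts, steroid conjugates and urate in 2 steps. Slc22 and Slco proteins of the basolateral membrane, which faces the blood, take organic cations and anions into the cell, and ABC pumps and other carriers of the brush border pass them into the urine. ABC proteins use ATP, and other members of that superfamily move lipids, haem, peptides or fatty acids inside the cell or act in translation. P-glycoprotein, encoded in rodents by the gene pair Abcb1a and Abcb1b, is the best known of the drug pumps, and both cyclosporine A and tacrolimus are among its substrates.

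Values are FPKM, fragments per kilobase of gene length and per unit of library depth, so they can be set against each other between genes of a table. Libraries of the cyclosporine A table held 30468769 to 34308899 assigned fragments, and those of the tacrolimus table held 31670202 to 39358485. Mitochondrial genes took 49.7% to 68.6% of the fragments with saline, 80.2% to 90.8% with cyclosporine A, and 10.5% to 15.9% in the other table. Deposited values of the cyclosporine A table include mitochondrial fragments in their depth, and a median-of-ratios rescaling, which sets the typical gene equal between libraries, was used for that table. The tacrolimus values were used as deposited. As a check of the tissue, the proximal tubule genes Slc34a1, Aqp1 and Miox were abundant in every group. Slc5a2 and Slc5a12, genes of the early proximal tubule, had means of 0.282 and 0.165 FPKM with saline against 144 and 71.4 FPKM with DMSO/PEG. Whether both experiments sampled the same part of the kidney is not known beyond the label of entire kidney, and this bears on every level set across the 2 vehicles. The distal tubule gene Pvalb was listed at 0 in all libraries. In whole kidney, fewer cells of a type and less RNA per cell cannot be told apart.

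With DMSO/PEG, 52 members averaged 1 FPKM or more, 28 reached 10 and 8 reached 100, and 5 were listed at 0 in every library. The 10 highest members held 77.8% of the summed level. Slc22a6, the organic anion exchanger Oat1, led with 532 ± 72.01 FPKM (mean ± SD, n = 6), followed by Slc22a8 (Oat3) with 402 ± 46.1 FPKM. Slc22a2 (the cation uptake carrier Oct2) had 304 ± 37.3 FPKM, and Slco1a6 had 252 ± 36.9 FPKM. Next came Slc22a12 (the urate carrier Urat1) with 184 ± 31.7 and Slco1a1 had 121 ± 21.8 FPKM. Slc22a6 exceeded Slc22a8, and Slc22a8 exceeded Slc22a2, by more than the sum of their SDs. Slc22a2 and Slco1a6 differed by less than that sum, as did Slco1a6 and Slc22a12.

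The order was not the same in the saline vehicle. There Slco1a6 led with 179.8 ± 39.4 FPKM (n = 4), ahead of Slc22a2 with 172 ± 24.3 and Slc22a12 with 114 ± 17.9 FPKM, and these were the 3 members above 100 FPKM. Slc22a6 was at rank 5 with 38.9 ± 6.16 FPKM. Slc22a8 was at rank 20 with 6.40 ± 1.98 FPKM. The same ranks with DMSO/PEG were 1 and 2. The 2 tables were normalized separately, and may differ in the kidney part sampled, so only ranks are set side by side here. Across the 56 members tested in both, Spearman's rho between the 2 vehicle means was 0.86, a description over genes that share length and library.

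**Figure D1:**
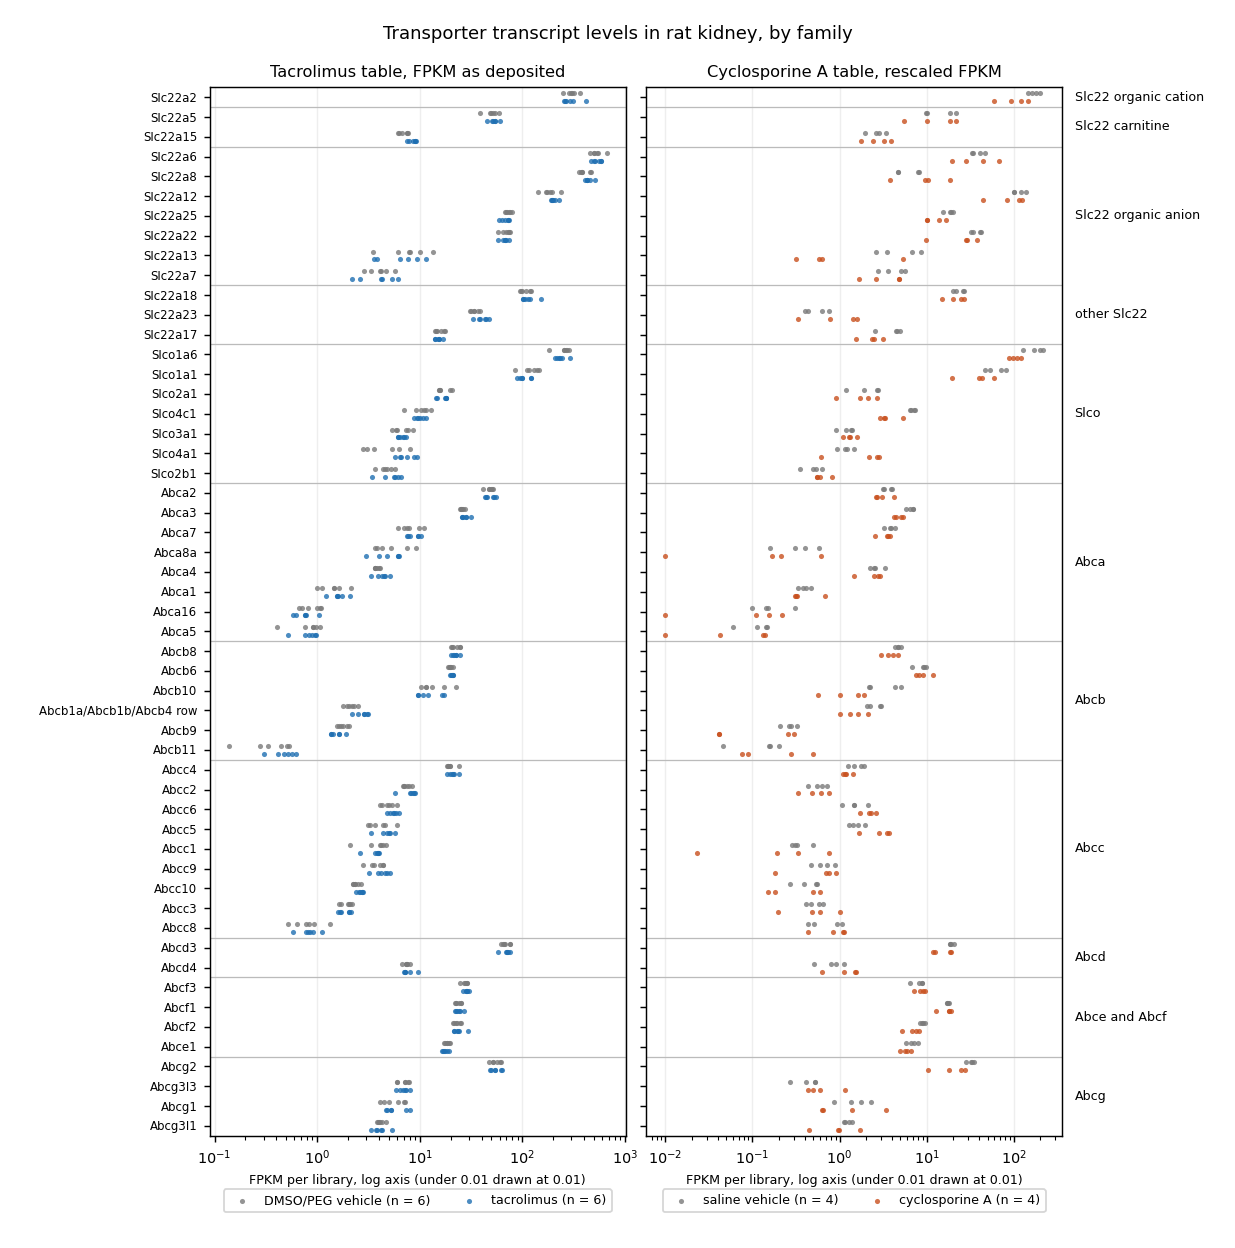
Levels of 53 tested transporters in every library, on a log axis of FPKM, ordered by family and, within a family, by its level with DMSO/PEG. Left, DMSO/PEG (grey) and tacrolimus (blue), n = 6 each. Right, saline (grey) and cyclosporine A (orange), n = 4 each, on rescaled FPKM. Slc22a6 and Slc22a8 lead on the left, and Slco1a6 and Slc22a2 lead on the right.

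No transporter passed the test with either drug. Of the 81 members, 56 had enough fragments to be tested with cyclosporine A and 64 with tacrolimus. A gene was called at a Benjamini-Hochberg adjusted p under 0.05 in limma, adjusted over all genes tested. With cyclosporine A, 0 of the 56 were called, against 0.609% of all 13455 genes tested. With tacrolimus, 0 of the 64 were called, against 0.303% of 15493 genes. For the difference between drugs, the log2 fold change with cyclosporine A less that with tacrolimus, 0 of 56 were called, against 1.63% of 13392 genes. By the count model limma-voom on recovered fragments, 2 members were called with cyclosporine A (Slco1a6 and Slco4c1), 3 for the difference between drugs (the same pair and the Abcb1a/Abcb1b/Abcb4 row) and 0 with tacrolimus. Over all genes that model called 281 of 13455, 328 of 13392 and 121 of 15493, in the same order.

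With cyclosporine A the members lay mostly on the lower side. Their median log2 fold change was -0.13 and 40 of 56 (71.4%) were below 0, against a median of -0.00048 and 50.1% below 0 over all genes. The size of that median moved with the libraries and settings: it was -0.07 without cyclosporine A replicate 4, -0.08 without saline replicate 1, -0.23 with a pseudocount of 0.1, -0.22 by limma-voom and -0.07 without the filter on low values. At an unadjusted p under 0.05, 14 of 56 passed (25.0%), against 16.2% of all genes. Of these, 13 were lower with the drug, where 8.92% of all genes were lower by that rule, and 1 was higher. In 6 members, or 10.7%, the 4 drug values and the 4 saline values did not overlap, against 10.9% of all genes. All 6 were lower with the drug, a direction in which 6.11% of all genes did not overlap, and the members' share was thus close to that of all genes for both directions together.

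With tacrolimus the median was 0.02 (0.01 to 0.03 without 1 library), with 37 members above 0 and 27 below. At an unadjusted p under 0.05, 7 of 64 passed (10.9%), against 8.58% of all genes. In 5 of these the value was higher with the drug, a direction that 3.70% of all genes took by the same rule, and 2 were lower. In no member did the 2 groups of 6 fail to overlap, against 0.975% of all genes. For the difference between drugs the median was -0.17, with 44 of 56 below 0 (78.6%, against 49.3% of all genes). The median was -0.28 with a pseudocount of 0.1 and -0.26 by limma-voom. Of the 56, 11 passed at an unadjusted p under 0.05 (19.6%, against 16.0% of all genes). All 11 were on the lower side with cyclosporine A, where 8.62% of all genes were. Without DMSO/PEG replicate 3 the count with tacrolimus was 11, and without saline replicate 4 that of the difference was 7.

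**Figure D2:**
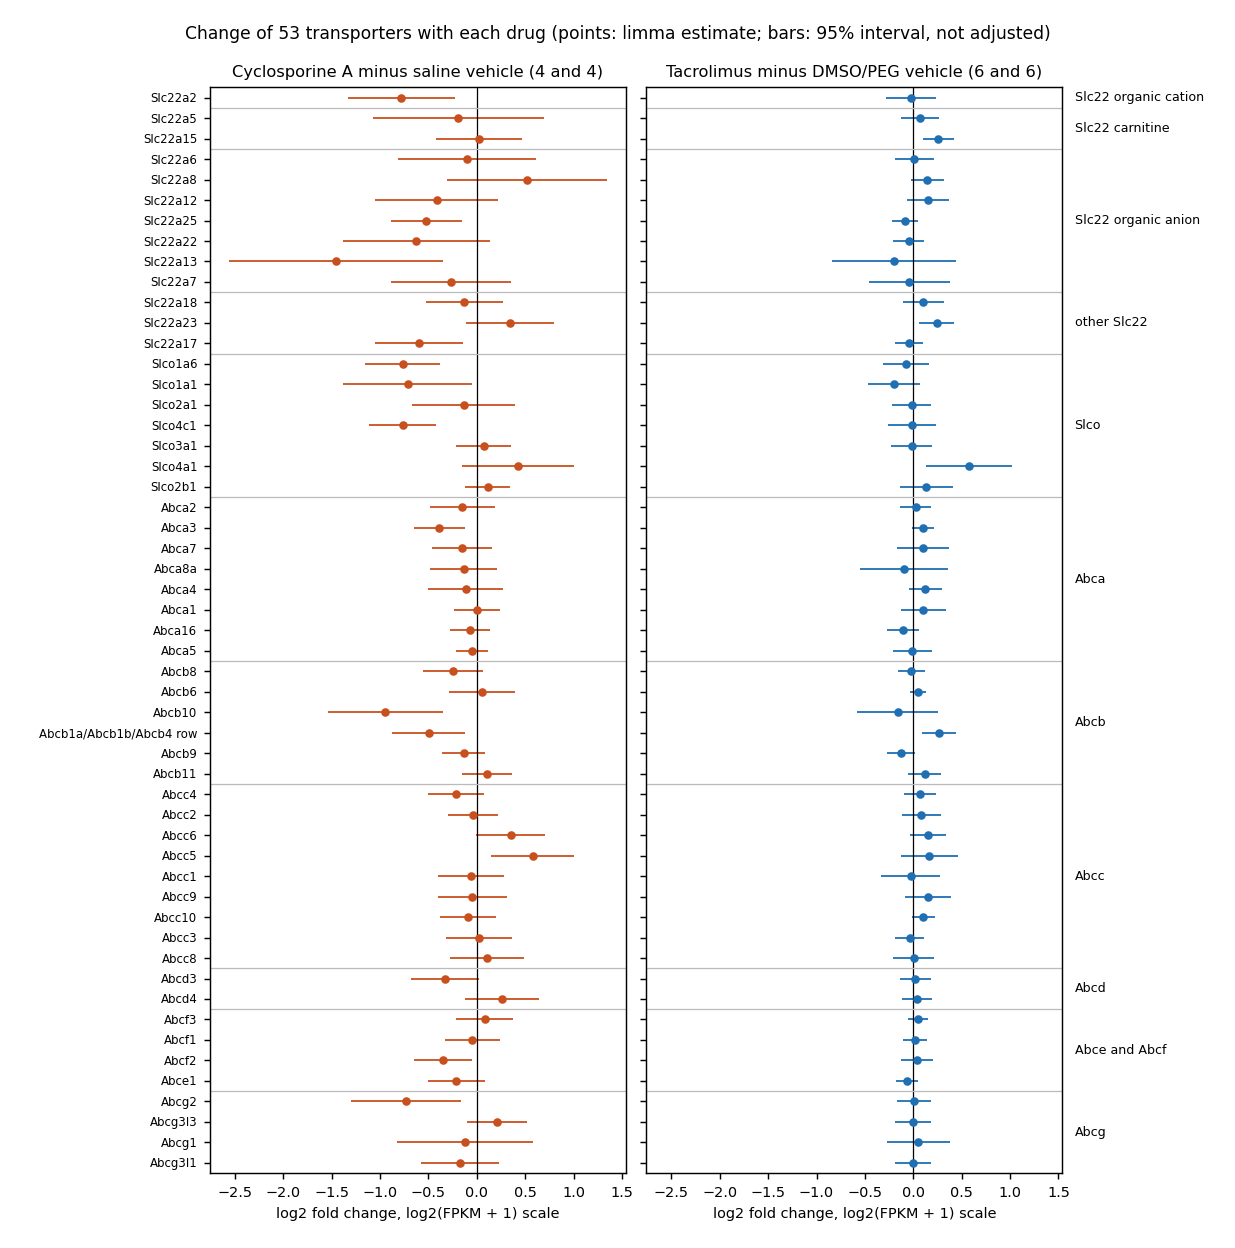
Log2 fold changes of 53 tested transporters on the log2(FPKM + 1) scale, by family. Left, cyclosporine A minus saline (4 and 4 libraries, rescaled FPKM). Right, tacrolimus minus DMSO/PEG (6 and 6 libraries). Points are limma estimates and bars their 95% intervals, not adjusted for the number of genes. On the left 37 of 53 points lie below 0, with the lowest at Slc22a13. On the right the intervals are narrower and most include 0.

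P-glycoprotein could not be split into its genes. Neither table has a row named Abcb1b. The row between Crot and Rundc3b, ENSRNOG00000008012, chr4:22133521-22425515 on the rn6 build, spans 291995 bases. It is named Abcb4 in the tacrolimus table and Abcb1a in the cyclosporine A table. RefSeq (assembly GRCr8) places Abcb4, Abcb1b and Abcb1a, in that order, between the same 2 neighbours. The row may thus hold all 3 genes: the pair of P-glycoprotein genes and Abcb4, which exports phosphatidylcholine into bile in the liver. It is called the Abcb1a/Abcb1b/Abcb4 row here.

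The 3 genes start from separate promoters. The RefSeq windows below (GRCr8, each 300 bases, 250 before and 50 after the annotated start, minus strand) are shown because the row may hold transcripts from any of them. They lie at chr4:26164096-26164395 for Abcb4, chr4:26279980-26280279 for Abcb1b and chr4:26397599-26397898 for Abcb1a. Capitals mark the letters GGGCGG (the GC box) and CCAAT, each searched on both strands, so that ATTGG is a match on the other strand.
Abcb4: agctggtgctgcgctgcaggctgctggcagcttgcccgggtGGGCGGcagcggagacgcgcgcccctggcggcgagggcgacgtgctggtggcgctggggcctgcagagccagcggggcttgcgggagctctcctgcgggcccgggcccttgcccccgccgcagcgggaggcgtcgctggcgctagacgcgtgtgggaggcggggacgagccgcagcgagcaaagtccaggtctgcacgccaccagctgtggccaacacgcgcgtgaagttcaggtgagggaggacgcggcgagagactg
Abcb1b: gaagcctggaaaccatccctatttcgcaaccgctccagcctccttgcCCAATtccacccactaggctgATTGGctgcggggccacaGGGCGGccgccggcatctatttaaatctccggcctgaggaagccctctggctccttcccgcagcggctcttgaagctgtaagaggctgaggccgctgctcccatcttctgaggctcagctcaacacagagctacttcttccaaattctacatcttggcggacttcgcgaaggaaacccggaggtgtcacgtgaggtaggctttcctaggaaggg
Abcb1a: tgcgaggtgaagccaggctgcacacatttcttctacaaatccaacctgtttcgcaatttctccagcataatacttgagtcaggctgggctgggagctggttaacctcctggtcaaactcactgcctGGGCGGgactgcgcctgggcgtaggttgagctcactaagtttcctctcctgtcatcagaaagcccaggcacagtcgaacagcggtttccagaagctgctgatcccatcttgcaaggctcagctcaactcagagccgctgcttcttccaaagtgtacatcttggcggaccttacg
Each of the 3 windows holds 1 GC box, and that of Abcb1b alone also holds CCAAT, with 1 match on each strand. GC boxes were found in 33.1% and CCAAT in 37.5% of all 33469 RefSeq windows of that length, and a match is a description of letters, not of a binding site.

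The row was lower with cyclosporine A and higher with tacrolimus than with their vehicles, and neither difference was called. With saline its 4 values were 2.88, 2.96, 2.07 and 2.22 FPKM, and with cyclosporine A 1.64, 1.33, 2.11 and 1.01 FPKM. The groups overlapped through 1 library of each, the lowest with saline and the highest with the drug. The log2 fold change with cyclosporine A was -0.50 (SE 0.17, adjusted p = 0.186). With DMSO/PEG the row ran from 1.77 to 2.53 FPKM (median 2.13), and with tacrolimus from 2.19 to 3.13 FPKM (median 2.86). Those groups overlapped as well, and the log2 fold change with tacrolimus was 0.26 (SE 0.08, adjusted p = 0.286). The difference between drugs was -0.76 (95% interval -1.16 to -0.36, adjusted p = 0.0539). Without cyclosporine A replicate 3 it was -0.87 (adjusted p = 0.0404), and without tacrolimus replicate 2 it was -0.81 (adjusted p = 0.0494). Over the alternatives (listed in the processing section, values as deposited aside) it ran from -1.09 to -0.66, with adjusted p from 0.0267 to 0.166. The row does not rest on the same length in both tables. Values come out as whole fragments with the listed length of 14132 bases in the tacrolimus table. In the cyclosporine A table they do not, and 4379 bases was the shortest length that made them whole. What was counted is not given in the sources used here, so the 2 changes may not measure the same transcripts. P-glycoprotein is also made by endothelial cells. Of the 7 endothelial markers tested with each drug, 0 were called. Their summed level ran from 23.4 to 30.5 FPKM with saline and 19.9 to 31.8 with cyclosporine A, and from 131 to 169 with DMSO/PEG and 131 to 161 with tacrolimus. Their part in the row's values was not tested.

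**Figure D3:**
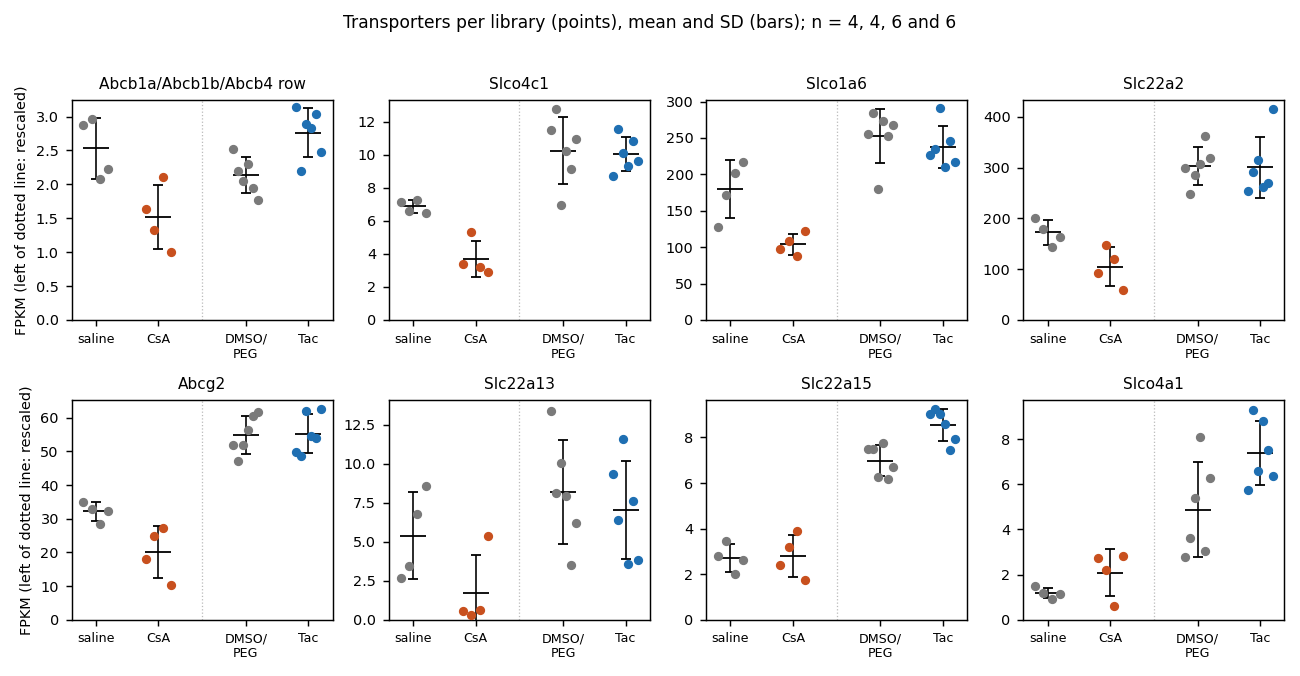
FPKM of 8 transporters in every library (points), with the mean and SD of each group (bars; for Slc22a13 the lower bar is drawn to 0). Saline and cyclosporine A (CsA), left of the dotted line, are on rescaled FPKM, and DMSO/PEG and tacrolimus (Tac) on FPKM as deposited. Slco4c1, Slco1a6 and Abcg2 separate saline from cyclosporine A, whereas the groups overlap in all 8 panels for tacrolimus.

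Among the organic cation carriers, Slc22a2 (ENSRNOG00000016625, chr1:48317995-48360261) was lower with cyclosporine A without being called. Oct2 is the basolateral entry step for metformin, cisplatin and creatinine. Its saline values were 201, 179.9, 144 and 164 FPKM, and those with cyclosporine A 92.1, 147, 121 and 58.7 FPKM. The highest drug value lay just above the lowest saline value, and the log2 fold change was -0.78 (SE 0.25, adjusted p = 0.167). With DMSO/PEG it ran from 249 to 361 FPKM (median 303) and with tacrolimus from 254 to 415 FPKM (median 280.1), a log2 fold change of -0.02 (SE 0.12, adjusted p = 0.981). The difference between drugs was -0.76 (95% interval -1.35 to -0.16, adjusted p = 0.193).

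Slc22a3 (Oct3) was near the floor, with means of 0.408 FPKM with DMSO/PEG and 0.227 FPKM with tacrolimus (log2 fold change -0.19 (SE 0.08, adjusted p = 0.484)). It was too low to be tested with cyclosporine A.

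The carnitine group held Slc22a5 and Slc22a15. Slc22a5, the high-affinity carnitine carrier Octn2, averaged 15.03 ± 5.93 FPKM with saline and 13.9 ± 7.43 with cyclosporine A, and 50.3 ± 6.77 with DMSO/PEG and 52.6 ± 5.06 with tacrolimus. Neither difference exceeded the SDs. Slc22a15 (ENSRNOG00000033051, chr2:204281638-204341676), a related carrier of zwitterions, had the smallest adjusted p of any member with tacrolimus. It ran from 6.18 to 7.76 FPKM (median 7.10) with DMSO/PEG and from 7.46 to 9.27 FPKM (median 8.80) with tacrolimus. The 2 ranges overlapped slightly, and the log2 fold change was 0.26 (SE 0.07, adjusted p = 0.219). With cyclosporine A the log2 fold change was 0.02 (SE 0.20, adjusted p = 0.974), and the interval of the difference between drugs (-0.70 to 0.22) included 0.

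The organic anion carriers of the basolateral membrane, Oat1 and Oat3, showed no difference larger than their spread. Slc22a6 with tacrolimus ran from 472 to 587 FPKM (median 532) against from 452 to 665 FPKM (median 519) with DMSO/PEG, a log2 fold change of 0.01 with a 95% interval of -0.19 to 0.21. For Slc22a8 the log2 fold change was 0.15 (SE 0.08, adjusted p = 0.675). With cyclosporine A the libraries scattered: Slc22a6 had 28.1, 44.7, 67.3 and 19.4 FPKM against 46.5, 41.3, 33.4 and 34.4 FPKM with saline. Slc22a8 had 10.3, 9.52, 18.5 and 3.84 FPKM against 8.21, 8.01, 4.70 and 4.65 FPKM. Cyclosporine A replicate 3 was the highest and replicate 4 the lowest of its group for both genes, and the intervals of the log2 change, -0.81 to 0.61 and -0.31 to 1.34, include both signs.

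Of the anion carriers of the brush border, Slc22a12 (Urat1, which takes urate back from the urine) had 82.7, 114, 123 and 44.1 FPKM with cyclosporine A and 137, 120.0, 101 and 99.7 FPKM with saline. The log2 fold change was -0.42 (SE 0.28, adjusted p = 0.511), and with tacrolimus 0.15 (SE 0.10, adjusted p = 0.743). Slc22a13 (ENSRNOG00000056476, chr8:127885268-127900463), a urate and nicotinate exchanger, had the lowest fold change of all members with cyclosporine A on the log2(FPKM + 1) scale. Its saline values were 2.65, 3.47, 6.80 and 8.59 FPKM, and those with cyclosporine A 0.584, 0.315, 0.622 and 5.37 FPKM. Replicate 4 lay among the saline values, and the other 3 drug libraries lay below every saline library. The log2 fold change was -1.46 (SE 0.50, adjusted p = 0.189) with all 8 libraries, and -1.98 (adjusted p = 0.0364) without that replicate. Over the alternatives, values as deposited aside, it ran from -3.17 to -1.22, with adjusted p from 0.0364 to 0.378. With DMSO/PEG and tacrolimus Slc22a13 also varied widely, from 3.48 to 13.4 FPKM (median 8.004) and from 3.55 to 11.6 FPKM (median 7.004).

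The other tested members of the anion group were on the lower side too. Slc22a25 had 18.5, 15.4, 19.1 and 19.96 FPKM with saline and 10.1, 16.6, 13.8 and 10.02 FPKM with cyclosporine A. The groups overlapped by 1 library of each, and the log2 fold change was -0.52 (SE 0.17, adjusted p = 0.165). Slc22a7, the anion carrier Oat2, had a log2 fold change of -0.26 (SE 0.28, adjusted p = 0.693). Altogether 6 of the 7 anion carriers tested were below 0 with cyclosporine A, with a median of -0.42, and 4 of 7 with tacrolimus, with a median of -0.04. None was called with either drug.

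The remaining Slc22 genes went different ways. Slc22a17, known as a receptor for the iron carrier lipocalin 2, had 4.98, 4.60, 2.54 and 4.49 FPKM with saline and 2.50, 3.13, 2.35 and 1.56 FPKM with cyclosporine A, a log2 fold change of -0.60 (SE 0.20, adjusted p = 0.192). Slc22a23, an orphan carrier, had 0.621, 0.756, 0.434 and 0.398 FPKM with saline and 1.57, 0.769, 1.42 and 0.336 FPKM with the drug, a log2 fold change of 0.34 (SE 0.20, adjusted p = 0.442). With tacrolimus Slc22a23 ran from 33.1 to 47.1 FPKM (median 40.6) against from 30.6 to 38.3 FPKM (median 33.7), a log2 fold change of 0.24 (SE 0.08, adjusted p = 0.389). Slc22a18 averaged 107 ± 11.2 FPKM with DMSO/PEG and 115 ± 18.98 with tacrolimus, within the SDs.

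The Slco family takes up bulky organic anions such as steroid conjugates, prostaglandins and thyroid hormones, and it held the 2 members with the smallest adjusted p with cyclosporine A. Slco4c1 (ENSRNOG00000022711, chr9:104299277-104350308), a basolateral carrier of digoxin and uraemic toxins, had saline values of 7.11, 6.62, 7.27 and 6.47 FPKM. With cyclosporine A it had 3.36, 5.30, 3.22 and 2.92 FPKM. All 4 drug libraries were below all 4 saline libraries, and the log2 fold change was -0.77 (SE 0.16, adjusted p = 0.0643). Leaving out cyclosporine A replicate 2, the highest of the drug group, gave -0.92 (adjusted p = 0.0281). With DMSO/PEG Slco4c1 ran from 6.96 to 12.8 FPKM (median 10.6), and with tacrolimus from 8.74 to 11.5 FPKM (median 9.87), a log2 fold change of -0.01 (SE 0.12, adjusted p = 0.988). The difference between drugs was -0.75 (95% interval -1.16 to -0.34, adjusted p = 0.0539). It passed the test without cyclosporine A replicate 2 (adjusted p = 0.00844), DMSO/PEG replicate 2 (adjusted p = 0.0439) or tacrolimus replicate 1 (adjusted p = 0.048). Over the alternatives, values as deposited aside, the adjusted p of Slco4c1 ran from 0.0242 to 0.182 with cyclosporine A. For the difference it ran from 0.00844 to 0.154.

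Slco1a6 (ENSRNOG00000030894, chr4:176345671-176381477), a carrier known for its expression in rodent kidney, had 128, 171, 202 and 217 FPKM with saline and 97.6, 108, 88.2 and 121 FPKM with cyclosporine A. The highest drug value was below the lowest saline value, and the log2 fold change was -0.77 (SE 0.17, adjusted p = 0.0805). With tacrolimus it ran from 210.2 to 292 FPKM (median 231) against from 180.4 to 284 FPKM (median 262), a log2 fold change of -0.08 (SE 0.11, adjusted p = 0.917). The difference between drugs was -0.69 (adjusted p = 0.0968). Slco1a1 (ENSRNOG00000036984, chr4:176158640-176231344), a brush border carrier of sulfate and glucuronide conjugates, had 82.3, 71.4, 47.1 and 53.9 FPKM with saline and 39.5, 58.8, 42.8 and 19.7 with cyclosporine A, a log2 fold change of -0.72 (SE 0.30, adjusted p = 0.275) with overlapping groups. Slco1a1 and Slco1a6 are related in sequence and neighbours on chr4, and how reads shared between such copies were assigned is not given in the sources used here, so the split between them is uncertain.

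The promoters of Slco4c1 and Slco1a6 are shown because these genes had the smallest adjusted p with cyclosporine A. They are RefSeq windows of GRCr8 as above, at chr9:104676413-104676712 and chr4:176838983-176839282, both on the minus strand. Capitals again mark GGGCGG (the GC box) and CCAAT.
Slco4c1: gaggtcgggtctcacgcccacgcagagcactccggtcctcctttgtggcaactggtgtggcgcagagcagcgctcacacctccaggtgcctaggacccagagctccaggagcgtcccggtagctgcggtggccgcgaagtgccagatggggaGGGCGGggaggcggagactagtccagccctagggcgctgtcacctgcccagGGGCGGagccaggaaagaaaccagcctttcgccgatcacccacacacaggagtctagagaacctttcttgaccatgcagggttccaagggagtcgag
Slco1a6: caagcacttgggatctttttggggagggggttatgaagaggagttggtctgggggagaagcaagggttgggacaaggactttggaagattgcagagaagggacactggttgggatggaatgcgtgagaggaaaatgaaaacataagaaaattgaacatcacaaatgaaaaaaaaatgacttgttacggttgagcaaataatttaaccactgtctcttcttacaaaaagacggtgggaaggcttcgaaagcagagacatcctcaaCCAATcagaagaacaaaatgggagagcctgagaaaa
The window of Slco4c1 holds 2 GC boxes and that of Slco1a6 holds 1 CCAAT. Of the members, 65 had a window, 74 windows in all. GC boxes were in 39.2% of these and CCAAT in 36.5%, against 33.1% and 37.5% of all windows. Among the 8 windows found for the 10 highest members, 0 held a GC box and 5 held CCAAT (Slc22a12, Slc22a18, Slc22a2, Slco1a1 and Slco1a6). No test was made of these shares.

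Slco4a1 (ENSRNOG00000053430, chr3:175838994-175857983), a broadly expressed carrier of thyroid hormone and oestrone sulfate, had the largest fold change of the set with tacrolimus on the log2(FPKM + 1) scale, which understates changes of low genes such as Slco1b2 and Slc22a3. It ran from 2.78 to 8.12 FPKM (median 4.49) with DMSO/PEG and from 5.77 to 9.30 FPKM (median 7.06) with tacrolimus, with overlapping ranges. The log2 fold change was 0.57 (SE 0.21, adjusted p = 0.419). With cyclosporine A the values were 2.72, 2.19, 0.608 and 2.84 FPKM against 1.47, 1.20, 0.931 and 1.16 FPKM with saline, higher in 3 of 4 libraries and lower in replicate 3, a log2 fold change of 0.42 (SE 0.26, adjusted p = 0.459). Slco2a1, the prostaglandin carrier, had log2 fold changes of -0.14 with cyclosporine A and -0.02 with tacrolimus. Slco3a1 had log2 fold changes of 0.07 and -0.02, and Slco2b1 of 0.11 and 0.13, in the same order, each with an adjusted p of 0.643 or more. Slco1b2, a carrier typical of liver, averaged 0.183 FPKM with DMSO/PEG and 0.0944 with tacrolimus (log2 fold change -0.11 (SE 0.05, adjusted p = 0.563)).

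Of the apical drug pumps other than P-glycoprotein, Abcg2 (ENSRNOG00000007041, chr4:88832178-88890621), the breast cancer resistance protein, which also secretes urate, was lower with cyclosporine A in all libraries. Its saline values were 34.97, 32.8, 28.4 and 32.4 FPKM, and those with the drug 18.1, 24.9, 27.3 and 10.2 FPKM. The groups did not overlap, but the drug libraries spread over a wider range than the saline ones, and the log2 fold change was -0.73 (SE 0.25, adjusted p = 0.196). With tacrolimus Abcg2 ran from 48.6 to 62.6 FPKM (median 54.4) against from 47.03 to 61.7 FPKM (median 54.2), a log2 fold change of 0.01 with a 95% interval of -0.17 to 0.18. The difference between drugs was -0.74 (adjusted p = 0.196). Abcg1, which exports cholesterol, averaged 1.56 ± 0.606 FPKM with saline and 1.51 ± 1.30 with cyclosporine A. Abcg3l3 and Abcg3l1 are near copies of one another, so their split is uncertain. Abcg3l3 had log2 fold changes of 0.21 with cyclosporine A and -0.0037 with tacrolimus.

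The Abcc pumps export conjugates with glutathione or glucuronic acid, and their median was -0.04 with cyclosporine A and 0.08 with tacrolimus, with 0 of 9 called. Abcc2 and Abcc4 of the brush border differed by less than the spread between libraries. Abcc4 had 1.25, 1.92, 1.45 and 1.75 FPKM with saline and 1.20, 1.16, 1.10 and 1.43 FPKM with cyclosporine A, a log2 fold change of -0.22 (SE 0.13, adjusted p = 0.444), and with tacrolimus it ran from 18.4 to 24.2 FPKM (median 20.8) against from 18.3 to 24.03 FPKM (median 19.3). Abcc2 had log2 fold changes of -0.04 (95% interval -0.30 to 0.22) with cyclosporine A and 0.08 (-0.12 to 0.28) with tacrolimus. Abcc5 (ENSRNOG00000029178, chr11:84396033-84490211), an exporter of cyclic nucleotides, was the one member higher with cyclosporine A at an unadjusted p under 0.05. Its saline values were 1.41, 1.29, 1.63 and 1.97 FPKM, and those with the drug 3.66, 3.52, 1.67 and 2.82 FPKM. Replicate 3 lay among the saline values, and the log2 fold change was 0.58 (SE 0.19, adjusted p = 0.180). With tacrolimus the log2 fold change was 0.17 (SE 0.14, adjusted p = 0.817). Abcc6, the pump lost in pseudoxanthoma elasticum, had a log2 fold change of 0.35 (SE 0.16, adjusted p = 0.323) with cyclosporine A. Basolateral Abcc1 and Abcc3 had log2 fold changes of -0.06 and 0.02 with cyclosporine A. Abcc1 scattered from 0.0231 to 0.748 FPKM with that drug. Over the alternatives, values as deposited aside, its log2 fold change ran from -1.01 to 0.06.

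Several ABC proteins of the mitochondrial membrane belong to the Abcb family. Abcb10 (ENSRNOG00000017993, chr19:56742835-56772904), which acts in haem synthesis, had 2.23, 2.19, 5.05 and 4.32 FPKM with saline and 0.572, 1.61, 1.02 and 1.89 FPKM with cyclosporine A. The groups did not overlap, although 2 of the saline libraries lay far below the other 2, and the log2 fold change was -0.95 (SE 0.27, adjusted p = 0.128). Markers of erythroid cells, in which Abcb10 is known to be high, were above 0 in 4 of 4 tested with cyclosporine A (median log2 fold change 1.40, 0 called). On values as deposited they lay between -0.06 (Alas2) and 0.13 (Hbb), with Alas2 below 0. Abcb8 had a log2 fold change of -0.25, Abcb6 one of 0.06 and the lysosomal peptide carrier Abcb9 one of -0.14. Abcb9 was near the floor, with means of 0.269 FPKM with saline and 0.159 with cyclosporine A. Over the alternatives, values as deposited aside, its log2 fold change ran from -1.23 to -0.09. With tacrolimus Abcb10, Abcb8, Abcb6 and Abcb9 ran from -0.16 for Abcb10 to 0.05 for Abcb6. In the Abcb family as a whole, 5 of 7 were below 0 with cyclosporine A and 4 of 7 with tacrolimus.

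The Abca proteins move lipids. Abca3 (ENSRNOG00000050057, chr10:13723405-13779963), known from lamellar bodies of the lung, had 6.92, 6.49, 5.78 and 6.91 FPKM with saline and 5.08, 5.32, 4.42 and 4.24 FPKM with cyclosporine A. The groups did not overlap, and the log2 fold change was -0.39 (SE 0.12, adjusted p = 0.148). With tacrolimus it ran from 26.1 to 31.8 FPKM (median 27.3) against from 24.8 to 27.4 FPKM (median 25.6), a log2 fold change of 0.10 (SE 0.05, adjusted p = 0.662), and the difference between drugs was -0.49 (95% interval -0.76 to -0.21, adjusted p = 0.0738). Abca2, a lipid carrier of lysosomes, had log2 fold changes of -0.15 and 0.02 with the 2 drugs, and Abca7 of -0.15 and 0.10. Abca1, the cholesterol exporter, had log2 fold changes of 0.0027 with cyclosporine A and 0.10 with tacrolimus. Of the 8 Abca genes tested with cyclosporine A, 7 were below 0, with a median of -0.13. The median over 11 with tacrolimus was 0.02.

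The Abcd proteins sit in peroxisomes or lysosomes, and Abce1 and the Abcf proteins act in translation rather than transport. Abcd3, the major ABC protein of peroxisomes, had 20.3, 19.3, 18.4 and 18.6 FPKM with saline and 12.4, 18.3, 18.8 and 11.7 FPKM with cyclosporine A. Replicates 2 and 3 lay close to the saline values and replicates 1 and 4 below them, with a log2 fold change of -0.33 (SE 0.16, adjusted p = 0.339). Abcd4, a vitamin B12 carrier, had a log2 fold change of 0.26 with cyclosporine A. Abcf2 had 9.57, 9.11, 8.86 and 8.40 FPKM with saline and 6.81, 7.47, 8.14 and 5.19 FPKM with cyclosporine A without overlap, a log2 fold change of -0.35 (SE 0.13, adjusted p = 0.240). Abcf1 and Abcf3 had log2 fold changes of -0.04 and 0.08. With tacrolimus the 8 tested genes of these families ran from -0.11 to 0.05.

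The scaling of the cyclosporine A values set how many members were called, and the direction of the 16 above 0. The other 40 were below 0 on rescaled and on deposited values. Rescaling to the sum over nuclear genes instead gave a median member of -0.12, 0 called and 14 at an unadjusted p under 0.05, against -0.13, 0 and 14. On FPKM as deposited, 47 of the 56 members were called and all 47 were lower, where 80.9% of all genes tested were called lower. On that scale the median gene had a log2 fold change of -0.89 and the median member -1.07, and 56 of 56 members were below 0. Slco4c1 changed by -1.84, Slco1a6 by -2.09, Slc22a2 by -2.10, Abcg2 by -1.99 and the Abcb1a/Abcb1b/Abcb4 row by -1.34. Abcc5, higher after rescaling, had a log2 fold change of -0.32 as deposited, so its direction holds only relative to the typical gene. The same is true of the other members above 0, Slc22a8, Slco4a1, Abcc6 and Slc22a23 among them.

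**Figure D4:**
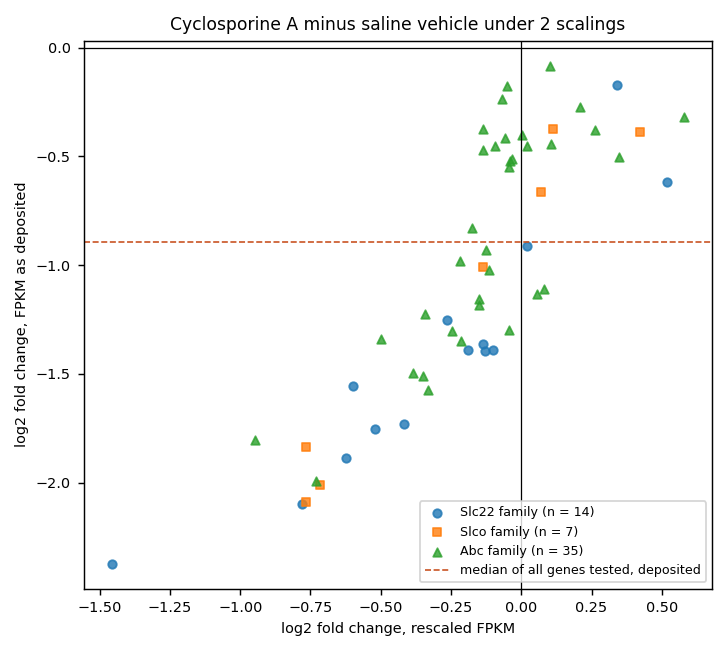
Log2 fold change of the 56 tested transporters with cyclosporine A on rescaled FPKM (horizontal) and on FPKM as deposited (vertical), 14 Slc22, 7 Slco and 35 Abc genes. The dashed line is the median of all genes tested on deposited values (-0.89), and solid lines mark 0. All points lie below 0 vertically, and 40 of 56 lie below 0 horizontally.

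Cyclosporine A replicate 4 had the highest mitochondrial share (90.8%) and the fewest nuclear fragments (2905839), and it held the lowest value of its group in 29 of the 56 members tested. Replicates 1, 2 and 3 held it in 13, 6 and 8. With saline, replicate 3 held the lowest value in 27 of 56 with a mitochondrial share of 62.6%, which lay inside the range of its group. Without replicate 4 the count at an unadjusted p under 0.05 was 16, against 14 with all libraries, and the median log2 fold change was -0.07, against -0.13. Markers of the late proximal tubule, where several of these carriers are known to be high, lay on the same side as the members. All 6 (Slc7a13, Acy3, Agmat, Napsa, Ggt1 and Slc3a1) were below 0 with cyclosporine A, with a median of -0.55 and 0 called. Their summed level ran from 2135 to 2660 FPKM with saline and from 1122 to 2163 FPKM with the drug. With tacrolimus 5 of 6 were above 0, with a median of 0.12 and sums of 3718 to 4666 against 3770 to 4044 FPKM. Of the 8 proximal tubule markers, 5 were below 0 with cyclosporine A, with a median of -0.08. The endocytic receptors Cubn and Lrp2 and the water channel Aqp1 had log2 fold changes of -0.59, -0.58 and -0.72, and Miox and Slc34a1 had -0.14 and -0.01, none called. Above 0 were Slc5a2 (0.94, the 1 called), Slc5a12 (0.47) and Slc4a4 (0.28). All of these were near the floor, with saline means of 0.282, 0.165 and 0.358 FPKM. With tacrolimus the median of the 8 markers was 0.03.

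Markers of other kidney cells differed with cyclosporine A as well. Of the thick limb and distal tubule markers, 3 of 4 tested were below 0 (median -1.15) and 2 were called lower, Umod and Calb1. Their summed level ran from 356 to 586 FPKM with saline and from 139 to 248 FPKM with the drug. All 4 urothelium markers tested were above 0 (median 0.99), with Upk1a called and sums of 1.64 to 4.20 FPKM against 7.29 to 17.8 FPKM with the drug. All 6 collecting duct markers were above 0 (median 0.27) and 4 of 5 podocyte markers (median 0.47), with 0 called in either list. On values as deposited the collecting duct markers were all below 0 and the podocyte markers mixed, and Upk1a had 0.57 (adjusted p = 0.0704) and was not called. With tacrolimus the 4 thick limb and distal tubule markers tested were below 0 (median -0.72), with 2 called lower, Slc12a3 and Calb1. All 8 adipocyte markers were below 0 with tacrolimus (median -1.09), with 2 called lower, Ucp1 and Cidea, and sums of 99.7 to 326 FPKM with DMSO/PEG against 55.0 to 173 FPKM with the drug. The part of these cells and of the mitochondrial share in the transporter values was not tested.

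Other genes of renal organic ion handling were described from a list of 32. It held other carriers, scaffold proteins of the brush border, nuclear receptors and transcription factors. With cyclosporine A 29 could be tested, 0 were called, 18 were below 0 and the median was -0.17. At an unadjusted p under 0.05 there were 7 lower and 1 higher (Nfe2l2, a stress response factor, at 0.31), where 8.92% of all genes were lower and 16.2% passed in either direction. On values as deposited Nfe2l2 had -0.94 (limma adjusted p = 0.00719), so its direction holds only relative to the typical gene. With tacrolimus 30 could be tested, 0 were called, 20 were above 0 and the median was 0.04, and at an unadjusted p under 0.05 there were 2 higher and 1 lower, where 8.58% of all genes passed. Slc47a1 (Mate1), which passes organic cations from the cell into the urine after Oct2 has taken them up, averaged 24.9 ± 5.55 FPKM with saline and 11.4 ± 4.61 with cyclosporine A. Its log2 fold change was -1.13 (SE 0.27, adjusted p = 0.0929), and 0.10 (adjusted p = 0.743) with tacrolimus. Pdzk1, a scaffold that anchors carriers in the brush border, had log2 fold changes of -0.39 (adjusted p = 0.250) with cyclosporine A and 0.03 (adjusted p = 0.954) with tacrolimus. Hnf4a, a factor that drives many proximal tubule carriers, had log2 fold changes of -0.36 (adjusted p = 0.345) with cyclosporine A and 0.06 (adjusted p = 0.880) with tacrolimus.

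The remaining members were low or were not detected. A value above 0 in some library was listed for 69 of 81 with cyclosporine A and its vehicle, and for 76 with tacrolimus and its vehicle. Members too low to be tested in the tacrolimus table were mostly of the Slco and Abca families, among them Slco1c1, Slco5a1, Slco1a2, Abca12 and Abca13. Abcg5 and Abcg8, which export sterols from liver and gut, averaged 0.0156 and 0.00296 FPKM with DMSO/PEG.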

How the data were processed

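Whole-kidney RNA was sequenced in 20 libraries, and the authors deposited 1 table per drug with its vehicle. Per the submitters' processing notes, reads were aligned with HISAT2 to rn6. The counting program, strand setting and annotation release are not given in the sources used here, and per the labels' protocols libraries came from an NEBNext kit. The deposited values are FPKM, judged from the values and the gene length in the file headers: value times length is a whole multiple of 1 step per library (tolerance 0.001) for 100.0% of values of the tacrolimus table and 74.1% of the cyclosporine A table. In the latter, 4445 genes, among them 31 of the 81 members, gave whole fragments with a length below the listed one, 38 members with the listed length, and 12 had no fragments. The tacrolimus table already followed median-of-ratios size factors. The cyclosporine A table followed library totals and was rescaled by median-of-ratios, computed on the recovered fragments.

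A gene was tested with at least 10 fragments at the median library in as many libraries as the smaller group has, and at least 15 fragments in all. limma 3.58.1 (R 4.3.3) was fitted to log2(FPKM + 1) over the whole table, with group as its term, a trend in the empirical Bayes step, 2-sided p-values and Benjamini-Hochberg adjustment. The pseudocount of 1 understates fold changes of low genes. The difference between drugs is the change with cyclosporine A minus that with tacrolimus, with Satterthwaite degrees of freedom. Intervals are 95% intervals of single genes. Counts were also simulated, with the same dispersion for every gene and both tables. For cyclosporine A (13511 genes) the fit recovered 58.6% of genes changed by 1 on the log2 scale and 99% of those changed by 2, with 10 false calls. For tacrolimus (15526 genes) it recovered 84% and 100%, with 9 false calls. Real genes differ in spread, so these shares are not the power for single members. The labels number replicates without naming the animals. Libraries of a group differed by 16.7 to 183.8 times sampling noise (chi-square per degree of freedom), and p-values measure the spread between these libraries, which may be technical.

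Genes were matched by identifier. Abcb1b has no row of its own and was not tested. A few genes are in the counts but not reported here by name. Slc22a4, named by another symbol in the tacrolimus table, fell outside the rule. Named were P-glycoprotein, every member called, the 3 highest of each family, known renal transporters, and the 5 members higher and 5 lower with the smallest p in each comparison. The members, lists and tests were chosen with earlier results of these data known. RefSeq sequences (GRCr8) were matched by symbol. Alternatives were a pseudocount of 0.1, no filter, limma-voom with quality weights, a replicate block, other scalings and leaving out each library.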

Additional observations from a re-analysis of the deposited data

Results flagged for a closer look

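In 9 of 172 groups of libraries examined, 1 library lay apart from the rest of its group by Dixon's criterion, and chance flags about 1 in 20 groups. With cyclosporine A, replicate 4 had 5.37 FPKM of Slc22a13 against 0.315 to 0.622 in the others, and 0.678 FPKM of the cholesterol exporter Abca1 against 0.305 to 0.324. With tacrolimus, replicate 6 lay apart for 4 members. The conjugate pumps were low in it, Abcc1 at 2.63 FPKM against 3.65 to 4.00 and Abcc2 at 5.68 against 7.96 to 8.96. Abcf2 was high at 29.3 against 21.4 to 23.9, as was Slc22a18 at 152 against 101 to 118. Tacrolimus replicate 4 had 58.0 FPKM of Abcd3 against 69.5 to 75.2. With DMSO/PEG, replicate 4 had 24.0 FPKM of Abcc4 against 18.3 to 19.9, and replicate 3 had 180 FPKM of Slco1a6 against 252.8 to 283.6.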

How the results depend on the processing

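On FPKM as deposited, 47 members were called with cyclosporine A (47 at an unadjusted p under 0.05) and 44 for the difference between drugs (45 unadjusted). Of all genes tested, 81.1% and 75.2% were called on that scale. The Abcb1a/Abcb1b/Abcb4 row was called there with cyclosporine A at -1.34 (adjusted p = 5.67e-04). That scale puts 97.5% of all genes below 0, so members above 0 after rescaling turned negative by its construction, called lower with cyclosporine A in Abca1 (-0.40), Abcb6 (-1.13), Abcc3 (-0.45), Abcf3 (-1.11), Slc22a15 (-0.91), Slco2b1 (-0.37) and Slco3a1 (-0.66), and for the difference in Abcb6 (-1.18), Abcc3 (-0.42), Abcc6 (-0.66), Abcf3 (-1.16) and Slco3a1 (-0.65). With limma-voom, 2 were called with cyclosporine A (Slco1a6 at -0.85 and Slco4c1 at -0.81) and 3 for the difference (Slco1a6 at -0.70, Slco4c1 at -0.72 and the Abcb row at -1.07), and 13 passed at an unadjusted p under 0.05 with tacrolimus, where that row had 0.40 (adjusted p = 0.110). A pseudocount of 0.1 gave that row -0.73 with cyclosporine A (adjusted p = 0.195). Apart from what is built into the scale, the cause was not tested.

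Leaving out each library gave 0 to 1 calls with cyclosporine A, 0 with tacrolimus and 0 to 1 for the difference. The calls were Slco4c1 (cyclosporine A replicate 2, and for the difference also DMSO/PEG replicate 2 or tacrolimus replicate 1), Slc22a13 (cyclosporine A replicate 4) and the Abcb row (cyclosporine A replicate 3 or tacrolimus replicate 2, difference only). Counts at an unadjusted p under 0.05 ran from 11 to 16, from 5 to 11 (11 without DMSO/PEG replicate 3) and from 7 (without saline replicate 4) to 14. Same-numbered libraries correlated at -0.149 to 0.212 and -0.151 to 0.182. The highest correlation with another number ran from -0.036 to 0.202 and from 0.04 to 0.381. The labels do not say whether equal numbers pair libraries, and these few correlations cannot decide it. With the replicate block the counts were 0, 0 and 0 called and 14, 6 and 12 unadjusted. Abcb1b could not be computed under any setting, having no row. Over all genes the 82, 47 and 218 calls became 281, 121 and 328 with limma-voom, 10911 and 10068 (cyclosporine A and the difference) as deposited, 6, 44 and 181 with the block, 1, 47 and 131 without the filter, and 1 to 139, 37 to 50 and 27 to 267 without 1 library. Depth was lowest with cyclosporine A, at 2905839 to 6549282 nuclear fragments.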

Other observations

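Related carriers that the symbol rule left out were looked up after their values were seen. Slc22a4, the ergothioneine and carnitine carrier Octn1, averaged 2.48 ± 0.441 FPKM with saline and 1.12 ± 0.355 with cyclosporine A (SD, n = 4 each), a log2 fold change of -0.72 (limma adjusted p = 0.0809). With DMSO/PEG and tacrolimus it averaged 11.6 ± 1.88 and 11.7 ± 0.658 FPKM (n = 6 each). Slc21a4, listed under an older symbol of the Slco family, averaged 147 ± 28.6 FPKM with saline and 87.8 ± 25.0 with cyclosporine A, a log2 fold change of -0.76 (limma adjusted p = 0.135), and had one of -0.17 with tacrolimus (limma adjusted p = 0.850). The peptide carriers Tap1 and Tap2, ABC proteins with symbols outside the Abc scheme, had log2 fold changes of 0.42 and 0.21 with cyclosporine A, neither called.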
